A study of Caenorhabditis elegans with 6 samples.

Results

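The genes described here are 87 protein-coding genes of Caenorhabditis elegans that are known only by a sequence name and that were lower in worms labelled as fed let-607 RNAi. Genes of this kind were taken when their mean over the 6 libraries was at least 0.5 FPKM (fragments scaled to transcript length and to the mapped fragments of the library), when the mean of log2(FPKM + 0.1) was lower by at least 1 under the label let-607 RNAi, and when the highest value under that label lay below the lowest control value. They were 87 of the 6405 unnamed protein-coding genes that reached this mean (1.36%), among 46778 genes with values. The same 2 criteria were met by 108 of the 8211 genes with a gene-class name (1.32%), so unnamed genes were about as frequent as named ones. The genes were selected on their FPKM in these 6 libraries, so their differences between the groups are a description, and no test of them is given.

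The worms were N2, the laboratory wild type, collected whole at the L4 larval stage after growth at 20 °C from synchronized first-stage larvae. Control worms ate HT115 bacteria carrying the empty RNAi vector L4440, and the other group ate HT115 bacteria expressing let-607 double-stranded RNA, which the study's methods describe as diluted with control bacteria. Each group had 3 libraries of stranded mRNA. The labels do not say whether the replicates were separate cultures. The p-values below therefore set a difference between the groups against the spread between these libraries only. That spread is moderated by limma over all genes tested. The study asked which genes depend on LET-607, a bZIP transcription factor related to mammalian CREBH.

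A C. elegans gene is given a class name once a mutant, a family or a clear homologue has been described, and until then it carries the name of the sequenced clone and a number. Neighbouring genes with the same clone name therefore lie on 1 stretch of DNA, and worm genes often sit close together, as tandem duplicates or in operons that are transcribed from a shared promoter. The outer arms of the chromosomes are known to hold many young, duplicated gene families. No function is given here for the unnamed genes, since the annotation used gives none.

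In these FPKM values let-607 itself went against its label. Its level was 69.1, 57.1 and 57.3 FPKM in the controls and 71.0, 76.2 and 77.9 FPKM under the label let-607 RNAi, with a log2 difference of 0.30 (SE 0.08, adjusted p = 0.034, limma). The study reports that let-607 mRNA measured by qPCR, a different measure, was clearly reduced by the diluted RNAi. The reason for the difference was not tested, and the library labels were therefore kept as labels throughout. sysm-1 (sequence name T24B8.5), the immune gene whose reporter the study followed, fell by 3.20 on the log2 scale (adjusted p = 0.00019, limma), from 32.0 ± 2.51 to 3.52 ± 1.302 FPKM (SD, n = 3).

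Most of the 87 genes were lower by between 2-fold and 4-fold. The log2 difference, libraries labelled let-607 RNAi minus control, lay between -1 and -1.5 for 45 genes, between -1.5 and -2 for 25, between -2 and -3 for 8, between -3 and -4 for 5 and beyond -4 for 4. Its median was -1.47, against 0.12 over all genes tested, and relative to that general shift it was -1.59. The median gene kept 35.7% of its control level. In 51 genes the lowest control value was at least 2 times the highest value under the label let-607 RNAi, and the smallest such ratio was 1.15, for F49C5.12. Among unnamed genes the opposite pattern, a rise of at least 1 without overlap, was more frequent, with 284 genes (4.43%), as it was among named genes (258 genes, 3.14%). After median-of-ratios scaling, 118 unnamed genes were lower and 233 higher by the same criteria, and after quantile normalization 141 and 206. Without a minimum difference, 779 unnamed genes (12.2%) had every value under the label let-607 RNAi below every control value. In the fit over all genes with limma, 86 of the 87 also passed as lower (adjusted p under 0.1 and log2 difference below -1), where 1.37% of unnamed genes and 1.4% of all genes tested did, and 3.75% of all genes passed as higher. The balance over all genes moved with the scaling, from 579 higher and 216 lower as deposited to 462 and 266 after median-of-ratios scaling and 407 and 290 after quantile normalization. As this is the contrast that chose them, the count adds no support.

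**Figure D1:**
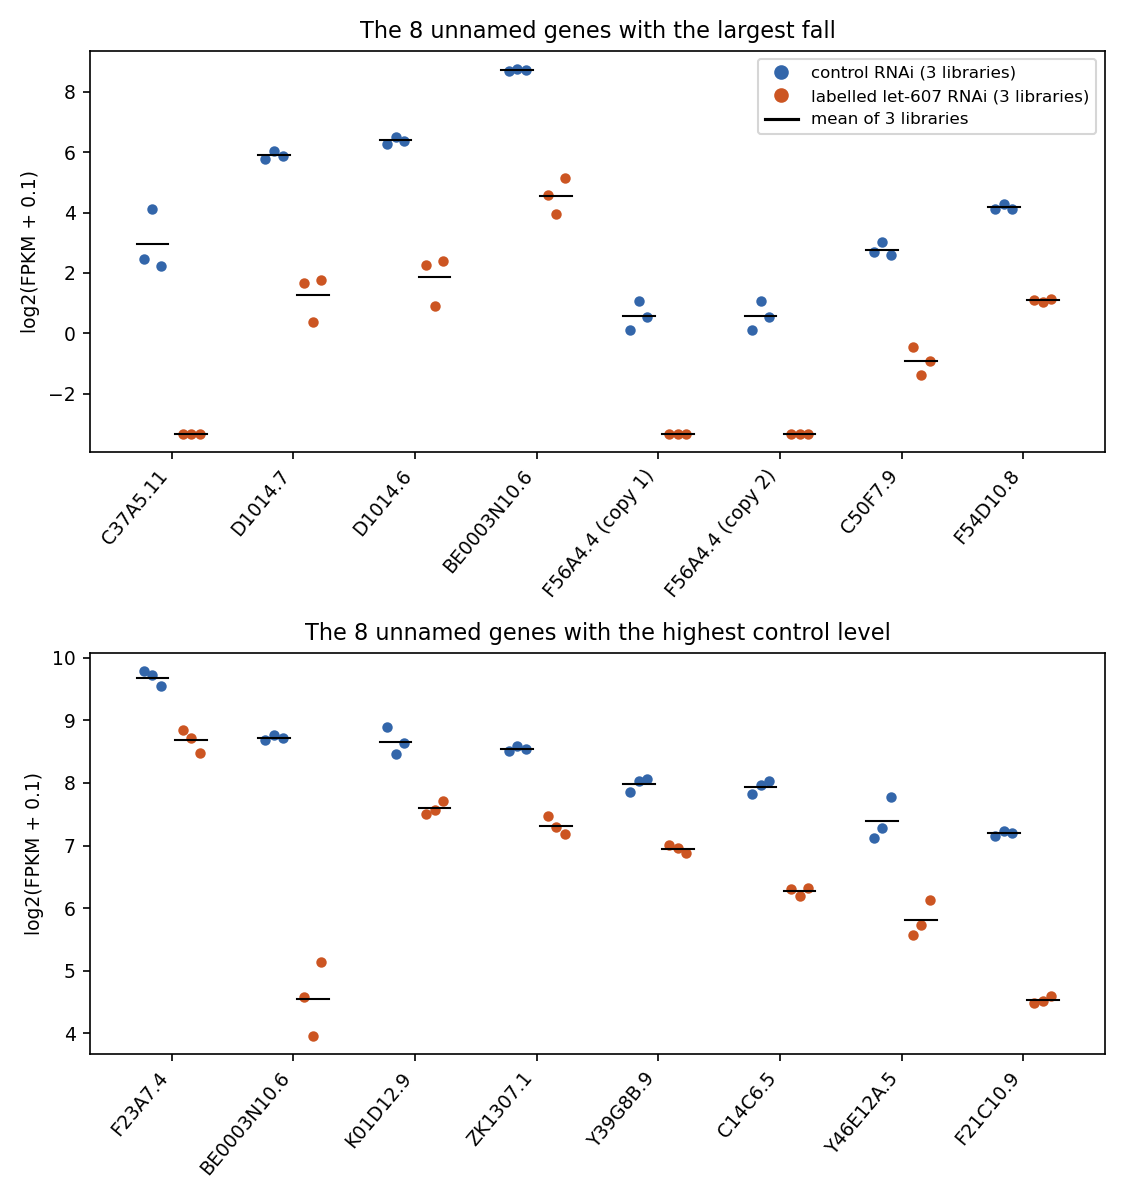
Each point is 1 library, drawn as log2(FPKM + 0.1) for the 8 genes with the largest difference (upper panel) and the 8 with the highest control mean (lower panel), and the bar is the mean of 3 libraries. BE0003N10.6, which is in both panels, is at 413 to 433 FPKM in the controls and at 15.5 to 35.0 FPKM under the label let-607 RNAi.

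The largest differences among well expressed genes were those of D1014.7, D1014.6 and BE0003N10.6. D1014.7 (WBGene00017020), on chromosome V from 8118264 to 8120417 on the plus strand (WBcel235), had 54.5, 66.0 and 58.7 FPKM in the controls and 3.05, 1.19 and 3.34 FPKM in those labelled let-607 RNAi, a log2 difference of -4.63. Its neighbour D1014.6 (WBGene00017019), from 8121168 to 8123470 on the same strand, had 78.0, 91.4 and 82.9 FPKM against 4.74, 1.78 and 5.15 FPKM, a difference of -4.53. In both genes, control replicate 2 was the highest control library and let-607 RNAi replicate 2 the lowest library of all. BE0003N10.6 (chromosome III, 1056230 to 1060061, minus strand) had 413, 433 and 420 FPKM against 23.8, 15.5 and 35.0 FPKM, a difference of -4.16. The control libraries of this gene were close together, while the let-607 RNAi libraries differed among themselves by more than 2-fold, again with replicate 2 lowest.

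C50F7.9 (chromosome IV, 7730669 to 7732060) and F54D10.8 (chromosome II, 3825656 to 3827901) followed at lower levels. C50F7.9 had 6.39, 8.09 and 5.93 FPKM in the controls and 0.63, 0.28 and 0.43 FPKM under the label let-607 RNAi, a log2 difference of -3.70. F54D10.8 had 17.2, 19.6 and 17.3 FPKM against 2.07, 1.94 and 2.10 FPKM, a difference of -3.08, with hardly any spread in either group. E03H4.4, with a coding sequence of 2412 bases, had 2.37, 1.96 and 2.35 FPKM against 0.12, 0.18 and 0.28 FPKM, a difference of -3.02. These genes showed that a difference of this size occurred at control levels from 2.23 FPKM (E03H4.4) to 422 FPKM (BE0003N10.6).

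The largest value of all, -6.27 for C37A5.11 (chromosome I, 14171054 to 14173007, plus strand), came with widely spread control values. They were 5.46, 17.3 and 4.62 FPKM, and the gene was listed at 0 in all 3 libraries labelled let-607 RNAi. The difference is on the log2(FPKM + 0.1) scale, so no fold is given. C37A5.11 has a coding sequence of only 210 bases, and C30F2.4, an unnamed gene that was left out because its groups overlap, has exactly the same 3 control values with 10.2, 0 and 0 FPKM under the label let-607 RNAi. The gene also overlaps pry-1, the worm Axin homologue of Wnt signalling, on the other strand. pry-1 had 9.14 ± 0.58 FPKM in the controls and 9.17 ± 0.38 FPKM in the others (SD, n = 3), a log2 difference of 0.01 (adjusted p = 0.96, limma). Whether the counting used strand is not stated in the sources used here, so reads of overlapping genes cannot be told apart.

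F56A4.4 is the only symbol that occurs 2 times among the 87. It marks WBGene00018912 (chromosome V, 2447895 to 2449136) and WBGene00021566 (2556174 to 2557415), both on the plus strand with a coding sequence of 381 bases. The deposited values of the pair are the same in every library, 0.99, 1.98 and 1.37 FPKM in the controls and 0 in the other 3, so the 87 genes hold 86 distinct sets of values and reads of these copies cannot be told apart. With F53B1.3, which was at 0.69, 0.72 and 0 FPKM under the label let-607 RNAi, 4 genes had at least 1 such library at 0. F53B1.3 was also the 1 gene of the 87 that did not pass in limma.

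Control levels spanned 3 orders of magnitude. The mean control level ran from 0.833 FPKM (ZK105.11) to 823 FPKM (F23A7.4), with a median of 11.2 FPKM, against 10.8 FPKM for all unnamed genes tested and 19.4 FPKM for named ones. Compared with all unnamed genes tested, a smaller share lay under 1 FPKM, at 5 to 10 FPKM and at 10 to 50 FPKM, and a larger share at 1 to 5 FPKM and from 50 FPKM up. Under 1 FPKM lay 2.30% of the 87, against 8.63% of unnamed genes. The criteria themselves favour a smaller share here. A gene lower under the label let-607 RNAi had to reach the minimum mean mostly through its control libraries. Other unnamed genes could reach it through the libraries labelled let-607 RNAi alone. The difference under 1 FPKM therefore cannot be read as a trait of the 87. The share at 1 to 5 FPKM was 33.3%, against 23.4%, and the share at 100 FPKM or more was 11.5% (10 genes), against 5.61%. Between 10 and 50 FPKM lay 28.7% of them, against 39.7%. The named genes that met the same criteria had a median of 11.1 FPKM, with 31.5% at 1 to 5 FPKM and 18.5% at 100 FPKM or more.

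**Figure D2:**
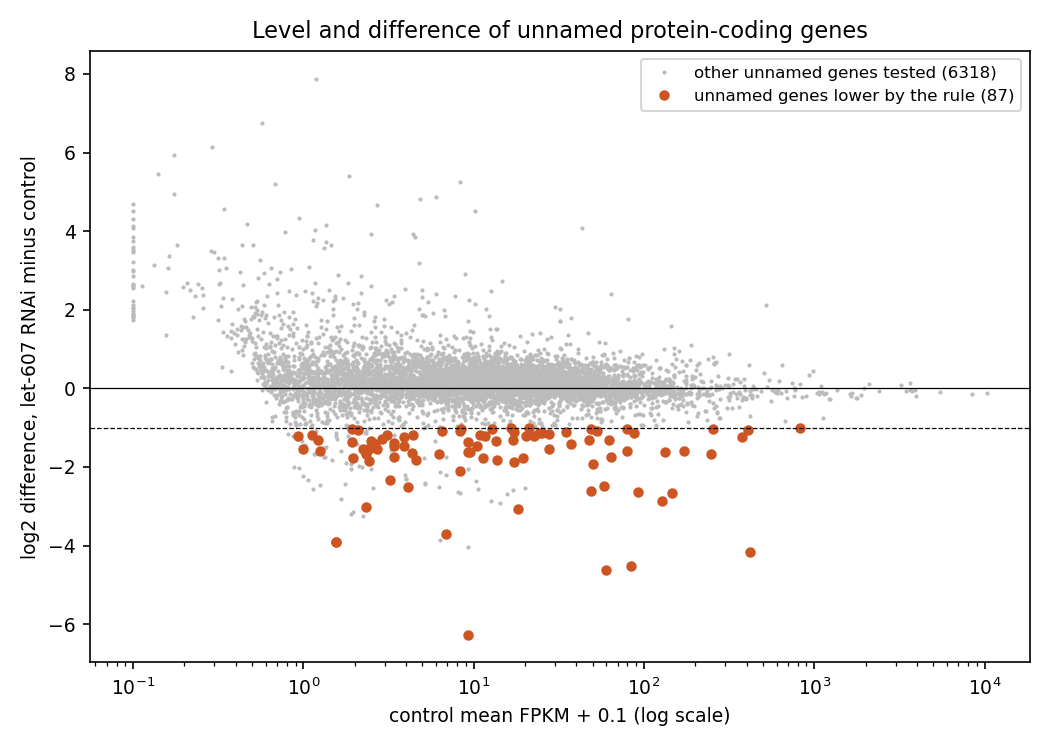
Each point is 1 unnamed protein-coding gene, with its control mean (FPKM + 0.1, log scale) against its log2 difference, libraries labelled let-607 RNAi minus control, and the 87 genes described are in orange (the 2 copies of F56A4.4 coincide). The 87 lie below the dashed line at -1 over control means of 0.833 to 823 FPKM, and grey points below that line are genes whose groups overlap.

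The 8 genes with the highest control means differed in the size of their fall, from the smallest of the 87 (F23A7.4) to that of BE0003N10.6. F23A7.4 (chromosome X, 16212606 to 16212812, plus strand), a gene with a single coding exon and a coding sequence of 204 bases, had 882, 843 and 745 FPKM in the controls and 457, 423 and 357 FPKM in those labelled let-607 RNAi. Its log2 difference of -1.001 is the smallest of the 87. K01D12.9 (chromosome V, 12403956 to 12404644) had 474, 351 and 397 FPKM against 180, 190 and 211 FPKM, a difference of -1.07. In K01D12.9 the control libraries varied more than those labelled let-607 RNAi, with control replicate 1 highest.

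ZK1307.1 (chromosome II, 9654345 to 9655580) had 365, 386 and 372 FPKM in the control libraries against 177, 156 and 146 FPKM, a log2 difference of -1.23. C14C6.5 (chromosome V, 536628 to 537418) had 226, 250 and 262 FPKM against 79.3, 73.1 and 79.5 FPKM, a difference of -1.67. Y46E12A.5 (chromosome III, 1757771 to 1758251) had 140, 156 and 220 FPKM against 47.2, 53.2 and 69.8 FPKM, a difference of -1.59, and its replicate 3 was the highest library in both groups. F21C10.9 (chromosome V, 9097201 to 9098696) stood out among abundant genes for a large difference with little spread. Its values were 142.5, 150.6 and 146.3 FPKM against 22.41, 22.87 and 24.01 FPKM, a difference of -2.66. Y71G12B.18 had 114.8, 141.1 and 126.6 FPKM against 19.5, 14.1 and 19.2 FPKM, a difference of -2.86.

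Summed over the 87 genes, mean FPKM went from 4607 in the control libraries to 1620 in those labelled let-607 RNAi. F23A7.4, BE0003N10.6 and K01D12.9 made up 35.9% of the control sum. At the other end, 31 genes had control means under 5 FPKM, where the pseudocount weighs most. With a pseudocount of 1, 59 of the 87 genes still met the criteria, and with a minimum mean of 5 FPKM 52 did.

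In the 87 genes, though not over all unnamed genes tested, the libraries labelled let-607 RNAi differed among themselves more than the controls did. The median SD of log2(FPKM + 0.1) was 0.14 in the control libraries and 0.23 in those labelled let-607 RNAi, while over all unnamed genes tested it was 0.13 and 0.12. For the named genes meeting the criteria the medians were 0.13 and 0.21. The levels of these genes were also lower under that label (median 3.79 FPKM), and the part of the level in this spread was not tested. Replicate 1 was the highest of the 3 libraries labelled let-607 RNAi in 39 genes, replicate 3 in 29 and replicate 2 in 19, and among the controls replicate 2 was highest in 38. Ties were given to the lower replicate number, so the 3 genes at 0 in all libraries labelled let-607 RNAi are counted for replicate 1. When 1 library at a time was left out, between 77 and 85 of the 87 genes still met the criteria.

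The genes were shorter in coding length than named ones, as unnamed genes are in general. The median coding sequence was 732 bases, against 831 bases for unnamed and 1245 bases for named genes tested. Under 600 coding bases were 37 of the 87 (42.5%), against 34.5% of unnamed genes and 15.8% of named ones. The median number of coding exons was 5, as among all unnamed genes tested.

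The criteria were met on every chromosome, and least often on chromosomes I and III. Chromosome V held 26 of the genes (29.9%, against 20.8% of unnamed genes tested), II held 17, IV 16, X 15, III 7 and I 6. Chromosome I held 6.90% of the genes against 15.7% of the unnamed genes tested, and III held 8.05% against 14.1%. Of the 108 named genes meeting the same criteria, 51 lay on V, 8 on I and 4 on III. All named genes tested were not counted by chromosome, so these counts have no background to be read against. In the outer parts of the chromosomes, beyond the middle 33.3% of each, lay 58 of the 87 (66.7%), against 59.1% of unnamed genes tested and 67.6% of the named genes meeting the criteria. These shares are descriptions without a test, and neighbouring genes are not independent of each other.

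**Figure D3:**
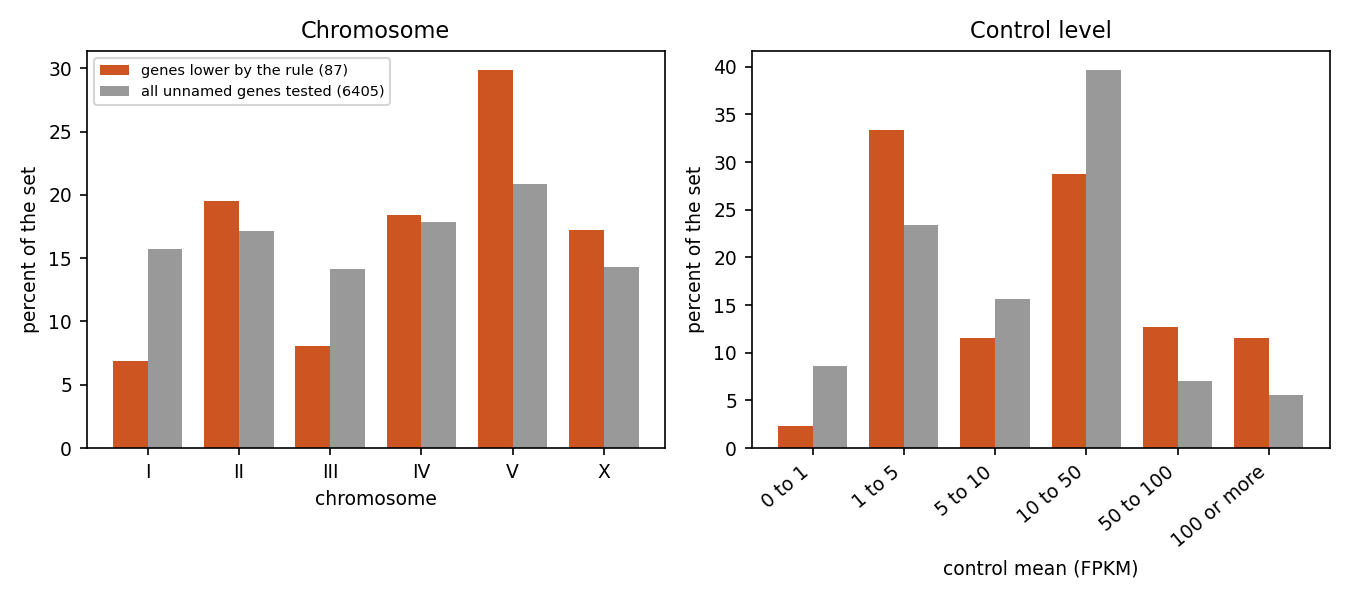
Bars give the percent of the 87 genes (orange) and of all 6405 unnamed genes tested (grey) on each chromosome (left) and in each range of control mean FPKM (right). Chromosome V holds 29.9% of the 87 and 20.8% of the unnamed genes, and 100 FPKM or more is reached by 11.5% and 5.61%.

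Several of the genes were neighbours. Joining genes whose starts lie within 20 kb of the next gave 8 runs with 22 of the 87 genes (25.3%), and the other 65 stood alone. The same joining put 18.5% of the 108 named genes meeting the criteria into runs, and 24.6% of the 284 unnamed genes that were higher. The share joined rises with the number of genes in a set, and no sets of equal size were drawn, so these shares cannot be compared directly. Within the 8 runs or overlapping them lay 10 further tested genes, of which 1 passed as lower and none as higher. In 6 runs all genes described were on 1 strand.

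The run with the most genes, on chromosome II from 13981365 to 14002300, held Y39G8B.9, Y39G8B.7, F01D5.1, F01D5.2 and F01D5.5. Y39G8B.9 had 231, 262 and 269 FPKM in the controls and 129, 125 and 117 FPKM under the label let-607 RNAi, a log2 difference of -1.04. F01D5.1, with 92.7, 89.3 and 93.9 FPKM against 16.8, 13.2 and 14.0 FPKM, had the largest difference of the run, -2.65. F01D5.5 had 135, 129 and 134 FPKM against 40.6, 48.0 and 41.7 FPKM, a difference of -1.61. The 3 genes were thus all abundant and each was lower in every library, but by factors that differed. F01D5.2 (16.5, 16.8 and 18.3 FPKM against 4.87, 5.71 and 3.47 FPKM) and the rare Y39G8B.7 (1.90, 2.18 and 1.49 FPKM against 0.28, 0.59 and 0.59 FPKM) had differences of -1.88 and -1.77. F01D5.3, which lies between F01D5.2 and F01D5.5 on the same strand and overlaps F01D5.2 at its end, went from 18.2 ± 1.89 to 12.4 ± 2.15 FPKM (SD, n = 3), a log2 difference of -0.55 that did not reach the threshold of 1. Y39G8B.10, between Y39G8B.9 and Y39G8B.7, had 1.13, 1.19 and 1.00 FPKM in the controls and 1.36, 0.42 and 0.42 FPKM under the label let-607 RNAi. Its groups overlapped, with a log2 difference of -0.71 (adjusted p = 0.27, limma). Directly outside the run, Y39G8B.1 (-0.02) and F01D5.6 (-0.03) had differences close to 0.

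On chromosome IV, F55G11.8, F55G11.2 and F55G11.4 lay between 12962808 and 12975603. F55G11.2 had 63.5, 55.0 and 55.5 FPKM in the controls and 11.1, 9.64 and 9.98 FPKM under the label let-607 RNAi, a log2 difference of -2.49. F55G11.8 had 85.4, 77.3 and 75.7 FPKM against 41.3, 39.2 and 36.6 FPKM, and F55G11.4 had 51.5, 51.2 and 55.7 FPKM against 24.9, 23.7 and 26.1 FPKM, with differences of -1.02 and -1.08. The middle gene of the 3 therefore differed most. dod-22 lies inside this stretch and dod-17 just outside it, both named for lying downstream of the transcription factor DAF-16. The study refers to both positive and negative targets of DAF-16, and the name does not say which these are. dod-17, next to F55G11.4, fell by 1.19 on the log2 scale (SE 0.06, adjusted p = 3.97e-05, limma), from 77.8 ± 3.02 to 34.1 ± 2.04 FPKM (SD, n = 3). dod-22, between F55G11.8 and F55G11.2, had 40.5 ± 2.40 and 31.9 ± 4.42 FPKM (SD, n = 3), a log2 difference of -0.35 (adjusted p = 0.041, limma) that did not reach the threshold.

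The pair D1014.7 and D1014.6, with starts 2.90 kb apart on 1 strand, moved together library by library. The ratio of D1014.7 to D1014.6 was 0.70, 0.72 and 0.71 in the control libraries and 0.64, 0.67 and 0.65 in those labelled let-607 RNAi. The levels of both genes were thus at 4.23% and 4.63% of their control means while their mean ratio went only from 0.71 to 0.65. D1014.5, the next gene on the same strand, went the other way, from 18.0 ± 1.36 to 32.8 ± 4.02 FPKM (SD, n = 3), a log2 difference of 0.86 that did not reach the threshold. The gene before the pair, myo-5, had a log2 difference of 0.08.

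On chromosome V the second copy of F56A4.4 and Y45G12C.1 flanked gst-10, which encodes a glutathione S-transferase of detoxification. The values of F56A4.4 are the same for both copies, so whether the copy beside gst-10 was lower cannot be told. This run, and its part in the counts of runs above, rests on that copy. gst-10 had 579, 617 and 602 FPKM in the controls and 309, 266 and 256 FPKM under the label let-607 RNAi, and fell by 1.12 on the log2 scale (SE 0.07, adjusted p = 0.000115, limma). Y45G12C.1 had 7.72, 8.02 and 9.32 FPKM against 4.21, 4.13 and 3.62 FPKM, a difference of -1.05. gst-10 was the 1 gene that passed as lower among the 10 further genes inside or overlapping the runs.

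The other 4 runs held 10 genes, with control means of 16.9 FPKM (H20E11.3) and below. H20E11.3 and H20E11.2, adjacent on chromosome IV, had differences of -1.30 and -1.81 at control means of 16.9 and 4.50 FPKM. C12D5.9, ZK105.11 and ZK105.6, spread over 35.9 kb of chromosome V, had differences of -1.48, -1.21 and -1.54, with 3 tested genes between them, and nhr-152 overlapping the end of C12D5.9, of which none passed. K09C4.4, F11D5.5 and F11D5.7 on chromosome X had differences of -1.54, -1.31 and -1.29, and K09C4.1, which lies between them, had -0.90. T14G12.12 and F47B7.4, also on X, had differences of -1.07 and -1.66. In T14G12.12 the libraries labelled let-607 RNAi were far apart, at 2.57, 3.80 and 5.84 FPKM, against 7.98, 8.18 and 8.52 FPKM in the controls.

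**Figure D4:**
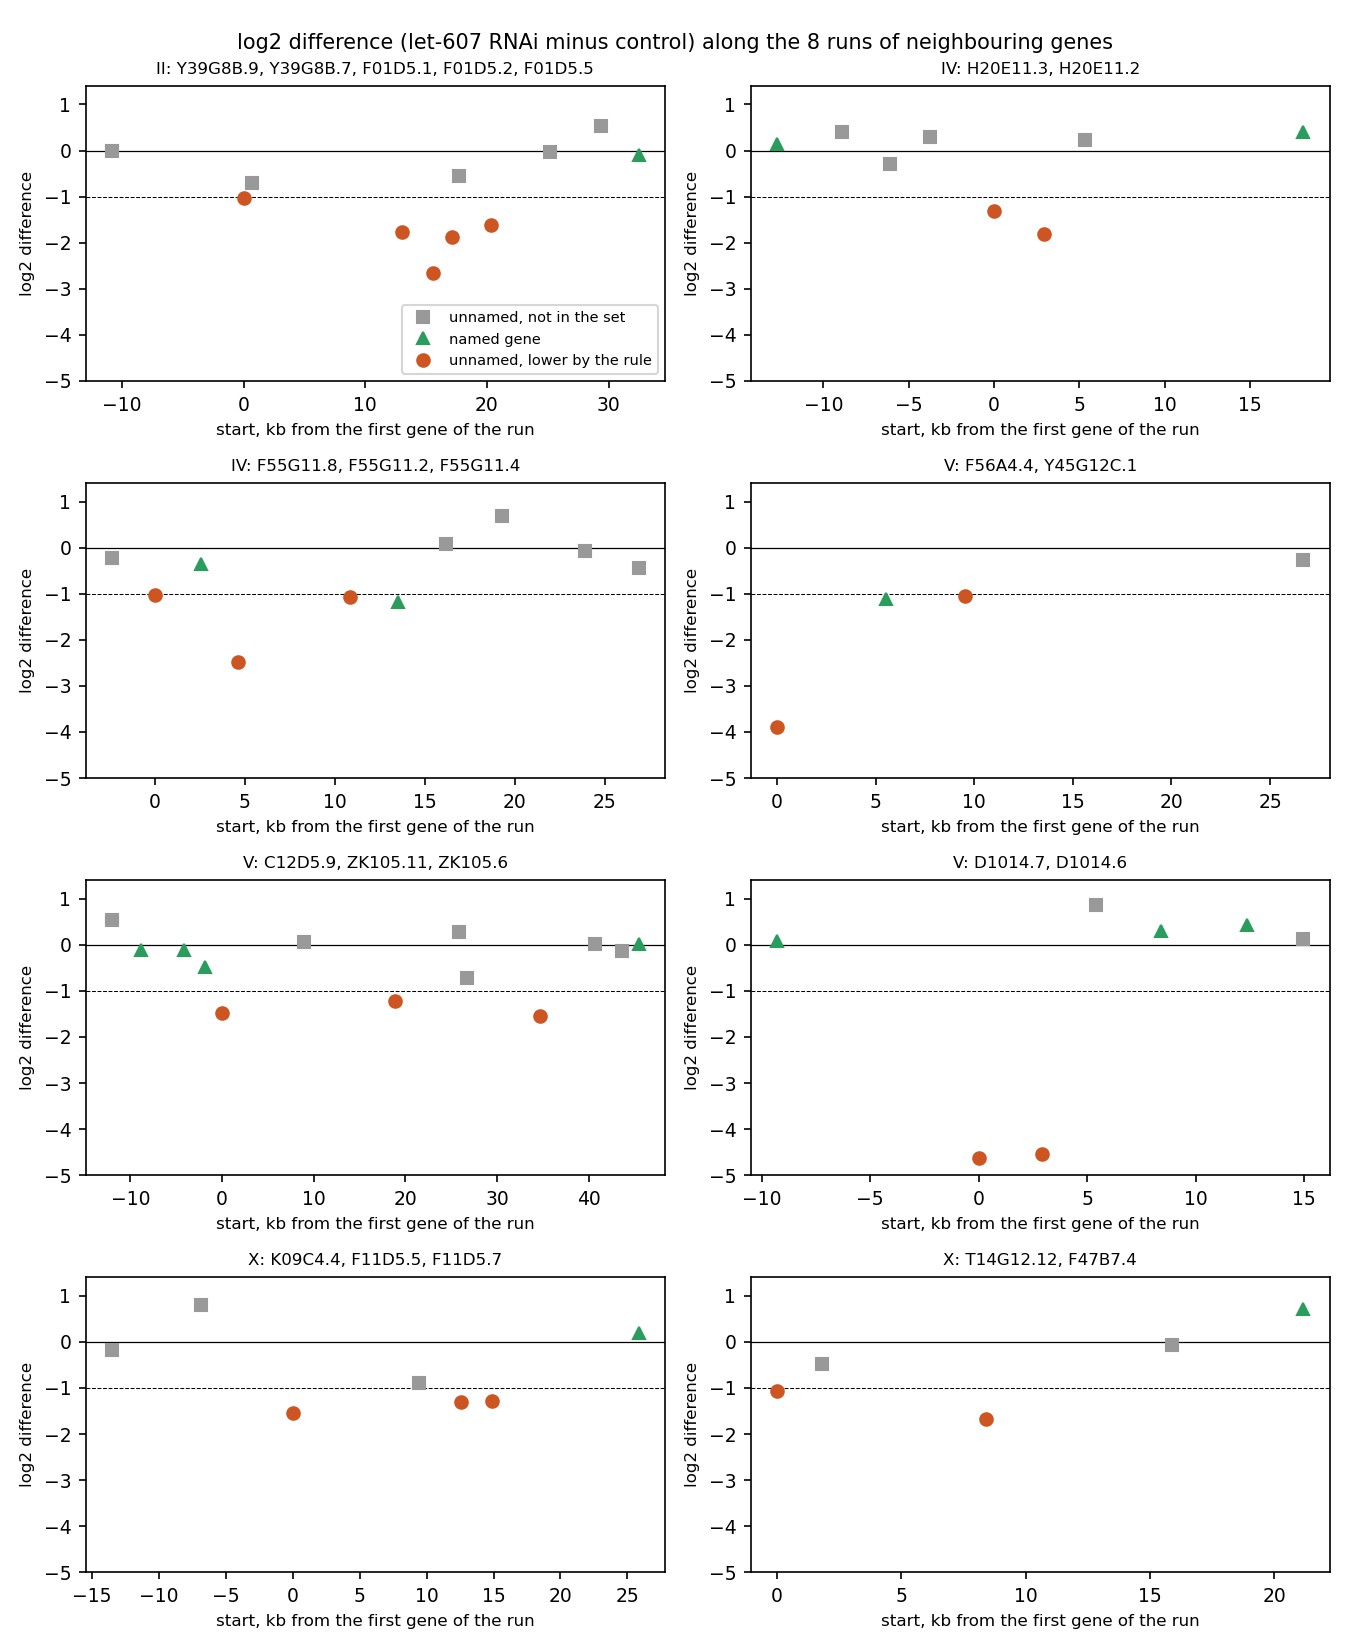
Each panel is 1 of the 8 runs, with the start of every tested protein-coding gene in kb from the first gene of the run against its log2 difference, libraries labelled let-607 RNAi minus control. Orange circles are the genes described, green triangles named genes and grey squares other unnamed genes, and D1014.7 and D1014.6 are at -4.63 and -4.53 beside D1014.5 at 0.86.

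On either side of each gene the nearest tested protein-coding gene outside the 87 was taken, and those with a gene-class name were kept. Their values are a readout the choice of genes did not use. There were 70 such named genes, next to 58 of the 87, and genes with only unnamed neighbours have none here. Of them 6 passed as lower (8.57%, against 1.33% of named genes tested) and 7 as higher (10%, against 3.13%), while 57 did not pass, and their median log2 difference was 0.07, against 0.11 for all named genes tested. Some of these neighbours lay far off, up to 118 kb. The counts are small and the flanking genes were not drawn independently of the genes described, so no test of the share is given.

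Among the 6 that fell, besides gst-10 and dod-17, were a C-type lectin gene, a cysteine protease gene, a chitinase-like gene and a chemoreceptor-class gene. clec-218, 2.82 kb from W02D7.8, had 10.3, 10.7 and 11.9 FPKM in the controls and 1.25, 1.14 and 0.89 FPKM under the label let-607 RNAi, and fell by 3.22 on the log2 scale (SE 0.15, adjusted p = 2.96e-05, limma). W02D7.8 itself had 3.60, 3.78 and 2.57 FPKM against 1.98, 1.31 and 0.52 FPKM, a difference of -1.47. cpr-6, 5.65 kb from F23G4.1, was the most abundant neighbour with 1887, 1939 and 1830 FPKM against 844, 805 and 756 FPKM, and fell by 1.23 (adjusted p = 1.39e-05, limma). chil-23, next to T19H5.6, fell by 1.08 (adjusted p = 0.0038, limma). The call of srh-237, next to T05E12.6, was weak, with a log2 difference of -1.12 and an adjusted p of 0.051 (limma), and it was lost without control replicate 1 (adjusted p = 0.107), without control replicate 2 (-0.98) and without let-607 RNAi replicate 1 (-0.75). Without let-607 RNAi replicate 2, chil-23 had a log2 difference of -0.92 and did not reach the threshold.

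The neighbours that rose were cdr-4, fbxa-182, oac-10, nhr-155, fbxa-98, fbxa-90 and oac-15. cdr-4, a cadmium-responsive gene 3.41 kb from K01D12.9 on the same strand, had 33.5, 32.0 and 33.1 FPKM in the controls and 907, 969 and 918 FPKM under the label let-607 RNAi, a rise of 4.82 on the log2 scale (SE 0.04, adjusted p = 3.38e-08, limma). K01D12.9 and cdr-4 thus moved in opposite directions side by side, from 407 ± 61.9 to 194 ± 15.5 FPKM and from 32.9 to 932 FPKM. fbxa-182, an F-box gene 25.4 kb from F16G10.9, had 0.68, 0.44 and 0.73 FPKM against 13.2, 14.7 and 13.8 FPKM, a rise of 4.31 (adjusted p = 2.29e-05, limma). nhr-155, a nuclear hormone receptor gene 2.83 kb from C14C6.5, had 0.21, 0.44 and 0.59 FPKM against 2.41, 1.58 and 1.35 FPKM, a rise of 1.91 (adjusted p = 0.012, limma). The call of oac-15, an acyltransferase-like gene with a log2 difference of 1.00, was lost without control replicate 2 (0.95) or 3 (0.91) and without let-607 RNAi replicate 2 (0.81), and that of fbxa-90 (1.29) without control replicate 3 (0.996).

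**Figure D5:**
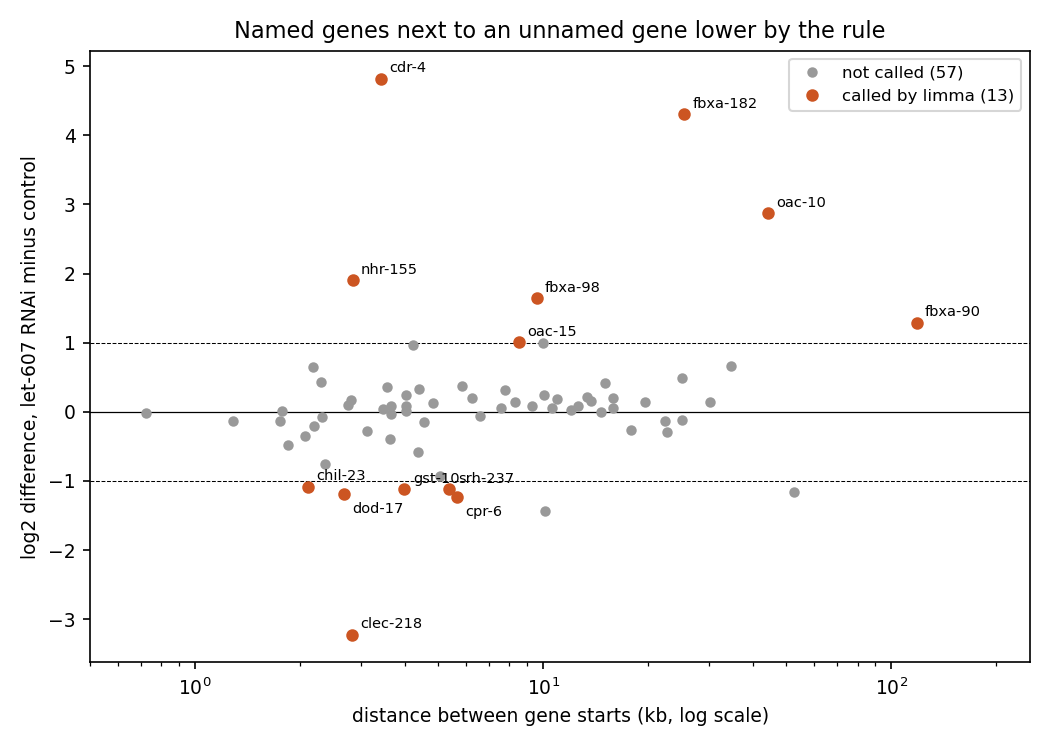
Each point is 1 of the 70 named genes next to a gene described, with the distance between the gene starts (kb, log scale) against its log2 difference, libraries labelled let-607 RNAi minus control. The 13 genes that passed in limma are orange and labelled, from clec-218 at -3.22 to cdr-4 at 4.82, and 57 are grey.

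Of the 87 genes, 8 overlap another tested gene, 6 of them on the other strand. F21C10.9 overlaps F21C10.10, which had a log2 difference of 0.71 (adjusted p = 0.0016, limma), in the opposite direction and short of the threshold. T13F3.6 overlaps T13F3.8 (0.41), F14F3.5 overlaps git-1 (-0.27) and Y52E8A.3 overlaps gtf-2F1 (0.08). None of the 8 overlapped genes passed as lower.

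At the threshold itself, F23A7.4 (-1.001), D1044.1 (-1.01) and ZK593.3 (-1.01) lay just inside, and F08G2.8 (-0.998), C33G3.4 (-0.996) and R09H10.7 (-0.979) just outside. C33G3.4, with 16.7, 16.6 and 16.8 FPKM in the control libraries against 8.92, 8.22 and 7.86 FPKM, is hardly different from D1044.1, with 17.24, 15.44 and 17.04 FPKM against 9.02, 9.04 and 6.73 FPKM. A further 75 unnamed genes were lower by at least 1 on average but had overlapping groups, and 71 of those had at least 1 library at 0. With them, 162 unnamed genes (2.53%) were lower by at least 1.

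Markers of tissues moved in part with the label. Of 41 markers tested of 42 listed, none passed as lower, 2 passed as higher and none was at 0 in any library. Over all genes tested, 1.4% passed as lower and 3.75% as higher. The 7 intestinal markers had a median log2 difference of -0.02, and their summed level was 1946 to 1988 FPKM in the controls and 1908 to 2084 FPKM in the others. The 9 sperm markers had a median of 0.61 with none past the threshold, and their summed level was 2508 to 2840 FPKM against 4086 to 4233 FPKM. All of the sperm markers were higher, from spe-9 (0.14, adjusted p = 0.42, limma) to msp-10 (0.90, adjusted p = 8.76e-05, limma). Among 8 oocyte and germline markers the median was 0.67, puf-5 and cpg-2 passed as higher, and the summed level was 330 to 362 FPKM against 447 to 484 FPKM. These markers too were all higher, from pgl-1 (0.06, adjusted p = 0.30, limma) to cpg-2 (1.14, adjusted p = 0.000101, limma). For 6 hypodermal markers the median was 0.23 and the summed level 1575 to 1875 FPKM against 1928 to 2176 FPKM, for 4 muscle markers 0.07 and 745 to 906 FPKM against 987 to 1066 FPKM, for 4 neuronal markers 0.20 and 179 to 194 FPKM against 259 to 272 FPKM, and for 3 yolk genes 0.98 and 32.0 to 112 FPKM against 40.2 to 84.0 FPKM. The sums rest mostly on the most abundant markers, such as act-5 in the intestine, unc-54 in muscle and snb-1 among the neuronal markers. snb-1 went from 154.9 to 230.4 FPKM, while unc-119 went from 10.5 to 11.4 FPKM. Below the flat intestinal sum, elt-7 (-0.51) and vha-6 (0.28) differed in opposite directions. The part of tissue composition in the values of the 87 genes was not tested. In whole worms, fewer cells of a type and less RNA per cell cannot be told apart.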

How the data were processed

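RNA sequencing of 6 libraries of whole L4 worms was analysed as deposited. The authors deposited FPKM per gene and library, rounded to 2 decimals, on WBcel235. The paper's methods name TopHat and Cufflinks, the submitters' processing notes name fastp, HISAT and RSEM, and which of these made the values was not settled. The files hold no counts, so the depth is unknown (library sums 1400487 to 1485099 FPKM), and precision comes from the spread of 3 libraries per group. Of 48197 lines, 1 was broken and 1418 repeated a gene. Positions, symbols and gene types are from Ensembl release 115, which held 46603 of 46778 genes.

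Genes that averaged at least 0.5 FPKM (15453) were compared on log2(FPKM + 0.1) with limma 3.58.1 (R 4.3.3, eBayes with a trend, no covariates), with Benjamini-Hochberg adjustment over all of them. How many differences near the threshold of 1 the fit would miss was not tested. Other steps used Python 3.11.15, pandas 2.3.3 and numpy 2.4.6. The genes described and all lists were chosen with earlier results of these data known. The text names the 8 genes with the largest difference, the 8 with the highest control mean, those in runs, those at 0 under the label let-607 RNAi, 3 on either side of the threshold and named neighbours that passed. E03H4.4, Y71G12B.18, F53B1.3, F49C5.12, W02D7.8 and the overlapping pairs were chosen after their values were seen. Alternatives were other pseudocounts, scalings, filters, thresholds, run distances and leaving out each library. Protein and promoter sequences and searches for related proteins were not used here.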

Additional observations from a re-analysis of the deposited data

How the results depend on the processing

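For 38 unnamed genes (those named by the stated rule, with 3 just outside the threshold) and 14 named neighbours, all 649 log2 differences computed under the alternatives kept their direction. For the unnamed genes this adds no support, since all 38 were chosen with groups that do not overlap. Leaving out a library or changing the pseudocount cannot reverse the direction of such a gene. Of the 214 log2 differences that belong to the 13 neighbours that passed, 15 no longer reached the threshold. With a pseudocount of 1 these were nhr-155 (0.97), chil-23 (-0.83), srh-237 (-0.71) and oac-15 (0.53), and oac-15 also missed it after median-of-ratios scaling (0.90) and quantile normalization (0.78). The count of 87 unnamed genes was 59 with a pseudocount of 1, 77 after rescaling to TPM, 118 after median-of-ratios scaling and 141 after quantile normalization, and it was 52 with a minimum mean of 5 FPKM. The latter 3 keep 87, 86 and 52 of the genes described. The median log2 difference of all genes was 0.12 as deposited, 0.01 after median-of-ratios scaling, -0.03 after quantile normalization and 0.17 after rescaling to TPM. With the minimum of 5 FPKM, fewer genes were tested, 124 of all genes passed as lower instead of 216, 52 of the genes described did instead of 86, and 3 named neighbours passed as higher instead of 7. Leaving out 1 library at a time gave 98 to 105 unnamed genes meeting the criteria, since fewer libraries have to be separate, 198 to 225 genes passing as lower in all, 76 to 84 of the genes described, and 5 to 7 lower and 7 to 9 higher neighbours. Runs held 17 genes when starts had to lie within 10 kb and 25 within 50 kb. With the replicate number as a block, 218 genes passed as lower, 84 of the genes described among them, with 6 lower and 7 higher neighbours. The labels do not say whether same-numbered libraries belong together. Their deviations from the group means correlated at -0.06, 0.003 and -0.02 over all genes tested, which cannot exclude a shared step. Some markers, such as vit-2 and vit-6, were highest in replicate 1 and lowest in replicate 2 in both groups, and others were not. Depth being unknown, low values such as those of C37A5.11 (log2 difference -3.13 with a pseudocount of 1 and -9.57 with 0.01) cannot be given a counting error. Comparisons of protein sequences with other worm genes were planned and not run.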

Other observations

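Genes that do not code for protein met the same value criteria in 13 cases. The 9 pseudogenes among them were 1.72% of 522 tested, near the 1.35% of all genes tested that met the criteria. The snoRNA gene ZK858.10 had 22.8, 16.8 and 17.7 FPKM in the controls but 0 in each library labelled let-607 RNAi. The long intergenic RNA linc-25 had 1.07, 0.93 and 2.00 FPKM and was also listed at 0 in those 3. The antisense RNA anr-2 had 4.28, 11.1 and 6.35 FPKM against 4.17, 2.32 and 2.24 FPKM, so that its groups were separated by a narrow margin. The pseudogene WBGene00009047 had 19.03, 19.18 and 18.74 FPKM against 8.23, 8.12 and 7.43 FPKM, with little spread in either group. The libraries were made from mRNA.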
